A study of Caenorhabditis elegans with 9 samples.

Results

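The 6 vitellogenin genes, *vit-1* to *vit-6*, and *rme-2*, the gene of the oocyte yolk receptor, were chosen by name, and all 7 were found among the 45495 genes of the table. They were measured by RNA-seq in whole worms of wild-type N2, the standard laboratory strain of *C. elegans*. The labels name 3 groups with 3 libraries each, and the library analysed here is young stage ADF replicate 1, from wild-type hermaphrodites, labelled as young adults, kept at 20°C under alternate day fasting (ADF) for 7 days. ADF means that worms were moved between plates with bacterial food and empty plates on alternating days, after washes in M9 buffer. RNA came from many worms pooled. The libraries of middle stage ADF and control, and the other libraries of young stage ADF, were not analysed here. The values therefore carry no replicate error, no effect of ADF was tested, and a difference between 2 genes can be set only against counting error within this library.

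Vitellogenins are large lipoproteins that the intestine of the adult hermaphrodite makes and secretes into the body cavity. Maturing oocytes take them up through RME-2, a receptor of the LDL receptor family on the oocyte surface, and the yolk feeds the embryo. The genes fall into subfamilies of close copies, with *vit-1* and *vit-2* in one, *vit-3*, *vit-4* and *vit-5* in another, and *vit-6* alone. Transcription is driven in the intestine by GATA factors such as ELT-2 and starts at adulthood. No sequence of these genes is shown, since no sequence table was used here.

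Yolk protein RNA was abundant in this library, and 3 genes held most of it. *vit-6* had 1363 FPKM, *vit-2* 1228 FPKM and *vit-5* 912.7 FPKM. FPKM counts the fragments on a gene, scaled by transcript length and by the mapped fragments of the library. The other vitellogenins were lower, with 252.8 FPKM for *vit-4*, 168.4 FPKM for *vit-3* and 146.1 FPKM for *vit-1*. *rme-2* lay between these sets of genes, at 318.4 FPKM. The summed level of the 6 vitellogenins was 4071 FPKM, which was 12.8 times the level of *rme-2* and 0.483% of the FPKM of all genes.

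**Figure D1:**
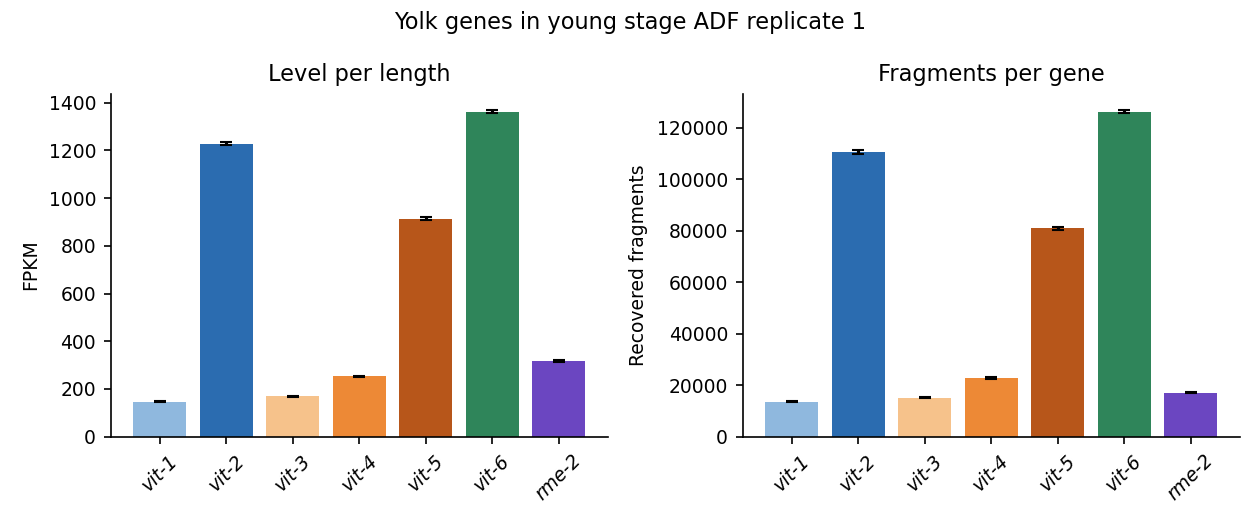
Levels of the 7 genes in young stage ADF replicate 1, as FPKM (left) and as recovered fragments (right), with 95% counting intervals. *vit-6*, *vit-2* and *vit-5* stand at 912.7 FPKM or more, while the other vitellogenins stay below 253 FPKM and *rme-2* is at 318 FPKM.

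The FPKM values were whole multiples of 1 fragment, so the fragments behind each gene could be recovered. *vit-6* rested on 126208 fragments, *vit-2* on 110571 and *vit-5* on 80918. *vit-4* rested on 22720 fragments, *rme-2* on 16996, *vit-3* on 15092 and *vit-1* on 13531. For each gene, 1 length within 10% of the annotated exon length gave a whole number. At this depth the 95% Clopper-Pearson intervals, which cover counting error only, were narrow. They ran from 1355 to 1370 FPKM for *vit-6*, from 143.6 to 148.6 FPKM for *vit-1* and from 313.6 to 323.2 FPKM for *rme-2*.

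Each step in the order of the levels was larger than counting error. *vit-6* was 1.11 times as high as *vit-2* (95% interval 1.10 to 1.12), and *vit-2* was 1.35 times as high as *vit-5* (95% interval 1.33 to 1.36). The widest step was that from *vit-5* down to *rme-2*, a ratio of 2.87 (95% interval 2.82 to 2.91). *rme-2* was 1.26 times as high as *vit-4* (95% interval 1.23 to 1.28) and *vit-4* was 1.50 times as high as *vit-3* (95% interval 1.47 to 1.53). With its annotated exon length *rme-2* was at 325.6 FPKM. That kept its place in the order but shifts its ratios to *vit-5* and *vit-4*, which these intervals do not cover. The closest step among the lower genes was that of *vit-3* over *vit-1*, at 1.15 (95% interval 1.13 to 1.18). From end to end, *vit-6* was 9.33 times as high as *vit-1*. The intervals take each fragment as belonging to 1 gene and do not cover how fragments shared by close copies were assigned. Whether neighbours in this order would keep their places in other libraries was not tested.

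The vitellogenins ranked far higher by fragments than by FPKM. Among the 19959 protein-coding genes, *vit-6*, *vit-2* and *vit-5* ranked 87, 102 and 134 by FPKM, yet ranked 2, 3 and 4 by recovered fragments, a quantity that is not scaled by length. Rank 1 by fragments went to *eef-1A.1*, which encodes a translation elongation factor, with 126734 fragments. Its ratio to *vit-6* was 1.00 (95% interval 0.996 to 1.01), so counting error did not separate ranks 1 and 2. The lower vitellogenins moved in the same way. *vit-4* ranked 511 by FPKM and 81 by fragments, *vit-3* 859 and 151, and *vit-1* 1020 and 172. *rme-2* ranked 373 by FPKM and 120 by fragments. Together the 6 vitellogenins held 2.02% of all recovered fragments. Their merged exons were long, at percentiles of 96.9 to 97.3 in length among the 11341 protein-coding genes that reached 1 FPKM and had an annotated exon model, where the median was 1365 bases, and *rme-2* was at a percentile of 87.1.

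**Figure D2:**
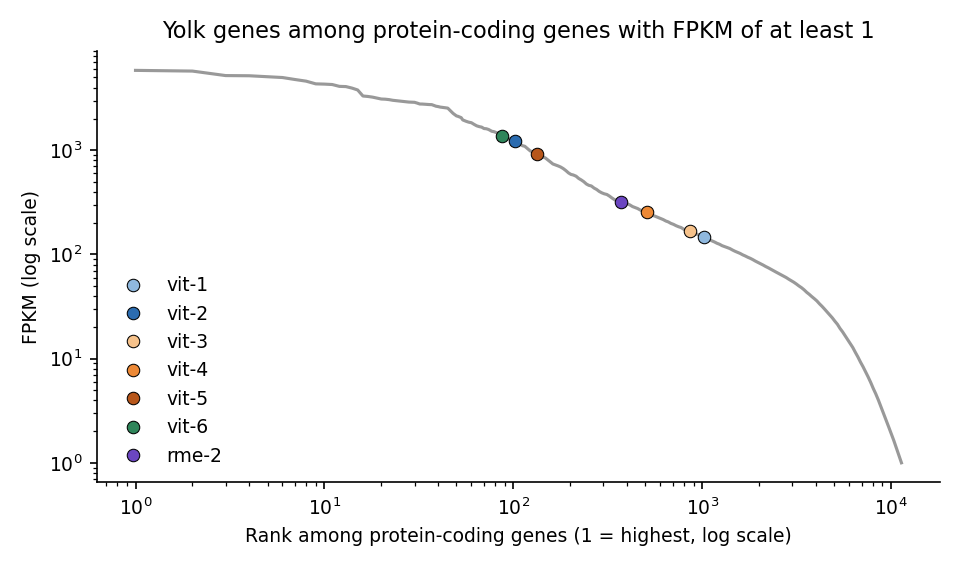
FPKM of protein-coding genes that reached 1 FPKM against their rank, both on log axes, with the 7 genes as points. *vit-6*, *vit-2* and *vit-5* sit together at ranks 87 to 134, and the others are spread from rank 373 for *rme-2* to rank 1020 for *vit-1*.

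When the close copies were added up, the levels of the subfamilies came within a few percent of each other. *vit-1* and *vit-2* together had 1375 FPKM, *vit-6* had 1363 FPKM, and *vit-3*, *vit-4* and *vit-5* together had 1334 FPKM. The sum of *vit-1* and *vit-2* was 11.8 FPKM above *vit-6*, with a 95% interval on counting error of 1.04 to 22.5 FPKM, and with annotated exon lengths it was 8.06 FPKM (95% interval -2.69 to 18.8 FPKM), so the order of these groups was not resolved. It was 40.7 FPKM above the sum of *vit-3*, *vit-4* and *vit-5* (95% interval 29.9 to 51.5 FPKM), a difference of 3.05%. *vit-6* exceeded that same sum by 28.9 FPKM (95% interval 18.2 to 39.6 FPKM), or 2.17%. Within the subfamilies the shares were uneven. *vit-2* held 89.4% of the summed FPKM of its pair, and *vit-5* held 68.4% of that of its group.

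**Figure D3:**
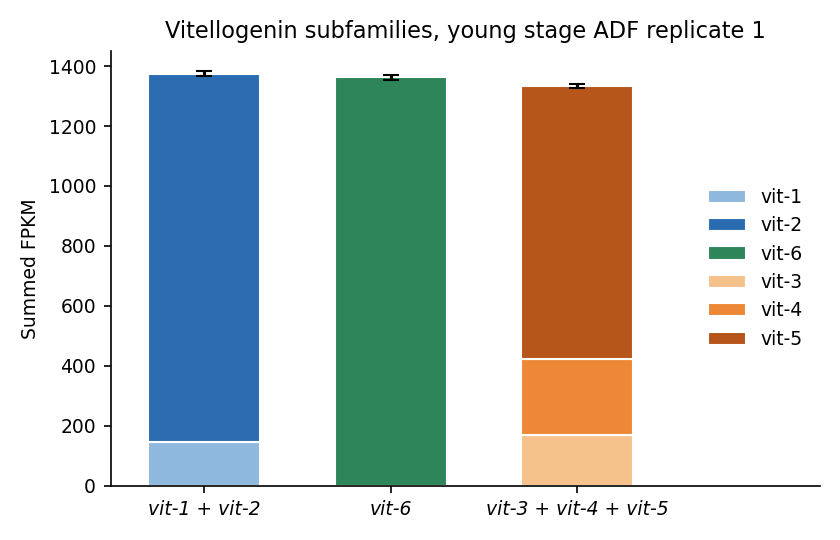
Summed FPKM of the vitellogenin subfamilies in young stage ADF replicate 1, stacked by gene, with 95% intervals on counting error. The bars reach 1375, 1363 and 1334 FPKM, with most of the first bar from *vit-2* and most of the last from *vit-5*.

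How fragments shared by close copies were assigned is not given in the sources used here. The split between *vit-1* and *vit-2*, and that among *vit-3*, *vit-4* and *vit-5*, is uncertain for this reason. The sums are less exposed where shared fragments were assigned to one copy or another, but they would be too low, against *vit-6*, if such fragments were left out, which was not tested.

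The exon structures in the Ensembl annotation of WBcel235 followed the same grouping. *vit-1* and *vit-2* have 5 exons each, with the second of 285 bases in both, the third of 3186 and 3180 bases, and the fourth of 247 bases in both. *vit-3*, *vit-4* and *vit-5* have 6 exons each. Their second exon is also of 285 bases, and it is followed in all of them by exons of 3038, 229 and 136 bases. *vit-6* has 5 exons in another arrangement, in which the first exon has 111 bases and the third has 3948 bases. The annotated proteins were 1603 residues long for *vit-3*, *vit-4* and *vit-5*, 1613 for *vit-2*, 1616 for *vit-1* and 1651 for *vit-6* over its merged coding exons. *rme-2*, with 7 exons and 925 residues, was shorter.

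**Figure D4:**
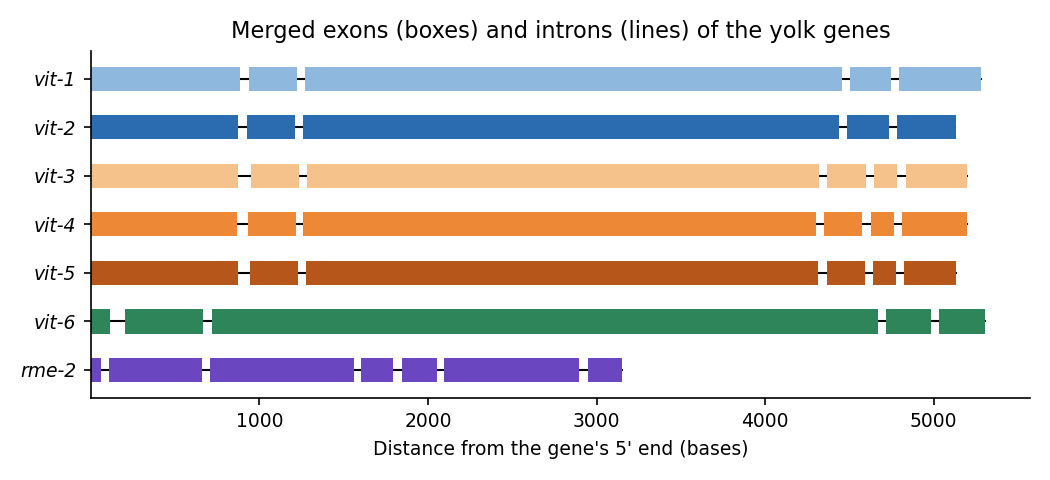
Merged exons (boxes) and introns (lines) of the 7 genes, drawn in the direction of transcription against the distance in bases from the 5′ end of each gene. *vit-1* and *vit-2* share a layout with 5 exons and *vit-3*, *vit-4* and *vit-5* one with 6 exons, while *vit-6* and *rme-2* each have their own.

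Introns took up little of these genes. They made up 3.64% to 5.22% of the span of the vitellogenins and 8.96% of that of *rme-2*, against a median of 39.6% over the same 11341 genes that reached 1 FPKM and had an exon model. The longest intron was of 91 bases, in *vit-6*. The lengths behind the FPKM equalled the annotated exon lengths for *vit-1*, *vit-3*, *vit-4* and *vit-5*. They were 10 bases longer for *vit-2*, whose RefSeq start lies upstream of the Ensembl start, 23 bases longer for *vit-6* and 65 bases longer for *rme-2*.

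The vitellogenins are spread over 2 chromosomes. *vit-5* lies on the plus strand of chromosome X of WBcel235, from 3403471 to 3408603. *vit-4* (from 3558769 to 3563965) and *vit-3* (from 3567355 to 3572549) follow on the minus strand, with 3389 bases and no other protein-coding gene between them. *vit-2* lies farther along on the plus strand, from 5101042 to 5106169, as does *vit-1*, from 7727889 to 7733168. *vit-6* is on the plus strand of chromosome IV, from 8261157 to 8266459, and *rme-2* is on the same strand of that chromosome, from 5470026 to 5473174.

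Chromosome X carried 5 of the 6 vitellogenins, and they stood far above most genes there. The median over all X-linked protein-coding genes was 2.10 FPKM, beside 2.20 FPKM on chromosome IV. Over those that reached 1 FPKM it was 8.21 FPKM on X and 18.6 FPKM on IV. Of 2729 protein-coding genes on X, *vit-2* was the second by FPKM, *vit-5* ranked 9, *vit-4* 39, *vit-3* 54 and *vit-1* 57. Of 3281 on chromosome IV, *vit-6* ranked 19 and *rme-2* 75. The adjacent genes *vit-4* and *vit-3* differed by a ratio of 1.50, as given above, while *vit-5*, 150165 bases away, was higher than both.

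Other genes at these loci were much lower in most cases. The genes that overlap *vit-3* and *vit-4* on the opposite strand, the noncoding T27A10.8 and F59D8.3, were both listed at 0, and C42D8.9, which overlaps *vit-2* on the opposite strand, had 0.132 FPKM. Next to *vit-6*, K07H8.8 had 0.0487 FPKM at a distance of 184 bases. Next to *vit-5*, *unc-78* had 18.9 FPKM at a distance of 70 bases. The exception was *spp-14*, 1505 bases from *vit-1*, with 898.3 FPKM.

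Genes that regulate the vitellogenins were far below them, as were most protein-coding genes. The vitellogenins stood at percentiles of 91.0 to 99.2 among protein-coding genes at 1 FPKM or more, whose median was 16.9 FPKM. Of the 13 regulators on the list, 12 reached an FPKM of at least 1, as did 56.9% of all protein-coding genes. The median of the 13 was 8.70 FPKM, against 582.8 FPKM for the vitellogenins. The GATA factor gene *elt-2* had 5.97 FPKM on 170 fragments (95% interval 5.11 to 6.94 FPKM) and its paralogue *elt-7* had 9.01 FPKM. *unc-62* and *ceh-60* encode homeodomain partners that act on vitellogenin transcription. They had 12.8 FPKM and 3.83 FPKM. The zinc finger gene *pqm-1* was the highest of the list, at 51.5 FPKM. The lowest was *mab-3*, which represses vitellogenins in the intestine of males, with 0.767 FPKM on 25 fragments (95% interval 0.496 to 1.13 FPKM), so its side of the threshold of 1 FPKM was not resolved. *lin-29*, a heterochronic gene of the larval to adult switch, had 1.74 FPKM. Genes of the TOR complex 2 branch, *rict-1* and *sgk-1*, had 26.7 FPKM and 8.70 FPKM. The TGF-β pathway Smad gene *sma-3* had 7.38 FPKM. For secretion, *dsc-4*, which encodes a subunit of the microsomal triglyceride transfer protein that loads lipid, had 11.8 FPKM, and *sar-1*, a GTPase of vesicle budding from the endoplasmic reticulum, had 256.5 FPKM.

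The receptor *rme-2* was higher than 13 of the 14 listed genes of uptake and endocytic trafficking. The exception was *rab-11.1*, a GTPase of recycling endosomes, with 426.7 FPKM. *rme-2* was also higher than 96.7% of the other protein-coding genes at 1 FPKM or more, so this place is not particular to the list. All 14 had an FPKM of at least 1, as did 56.9% of all protein-coding genes, and their median was 62.8 FPKM. The clathrin heavy chain gene *chc-1* had 80.8 FPKM, and the adaptor complex AP2 genes *apa-2* and *dpy-23* had 16.8 and 27.9 FPKM. The early endosome GTPase gene *rab-5* had 216.5 FPKM. Like *rme-2*, the other *rme* genes of the list are named for receptor-mediated endocytosis. *rme-1* had 98.9 FPKM, *rme-8* 22.05 FPKM, *rme-4* 12.3 FPKM and *rme-6* 8.91 FPKM, and the endocytic GTPase gene *rab-35* had 58.9 FPKM. Caveolin, encoded by *cav-1*, had 220.4 FPKM.

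Of 4 other genes with LDL receptor-type repeats, *egg-1* was higher than *rme-2*. Among the other protein-coding genes at 1 FPKM or more, 96.7% were lower than *rme-2*. *egg-1* and *egg-2*, which encode oocyte surface proteins needed for fertilization, had 438.3 FPKM and 232.0 FPKM. These genes are close copies too. *lrp-1* and *lrp-2*, which encode large receptors of the megalin type, had 6.85 FPKM and 6.18 FPKM.

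The tissues that make and take up yolk were both present in the library. All 10 intestine markers reached an FPKM of at least 1, as did 56.9% of all protein-coding genes. They ranged from 5.97 FPKM for *elt-2*, which is also on the regulator list, to 469.0 FPKM for the protease gene *asp-1*. Their median was 26.1 FPKM, beside 16.9 FPKM over all protein-coding genes at 1 FPKM or more. *elt-2*, *elt-7*, *ges-1* and *pept-1* were below that level of 16.9 FPKM. *vit-6*, *vit-2* and *vit-5* were above all 10, and each was above at least 98.8% of the other protein-coding genes at 1 FPKM or more. *vit-1*, the lowest vitellogenin, was exceeded by *asp-1* and by the intestinal actin gene *act-5*, at 240.6 FPKM. *vit-1* was above 91.0% of the other protein-coding genes at 1 FPKM or more. The lowest of the 8 oocyte markers, *chs-1*, had 121.7 FPKM, above 88.8% of the other protein-coding genes at 1 FPKM or more. The median of the 8 markers was 390.7 FPKM. *rme-2*, at 318.4 FPKM, was inside the range of these markers, and 4 of them were higher. The highest, the eggshell chondroitin proteoglycan gene *cpg-2*, had 1839 FPKM and was the one oocyte marker above *vit-6*. In whole worms, fewer cells of a tissue and less RNA per cell cannot be told apart.

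**Figure D5:**
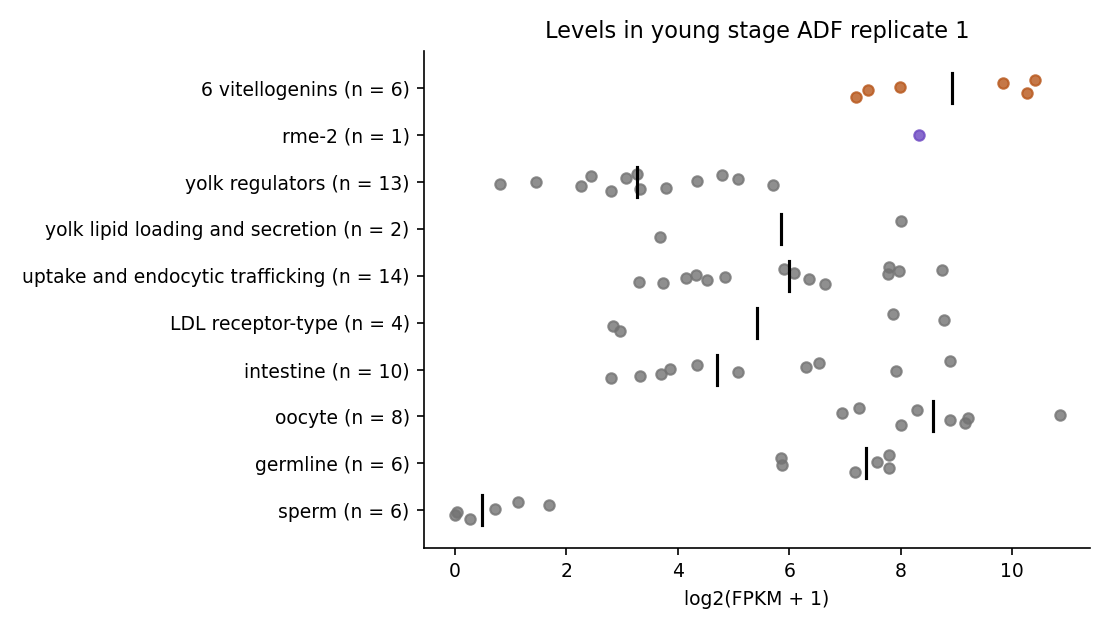
Levels on the log2(FPKM + 1) scale in young stage ADF replicate 1, where each point is a gene and the bar is the median of the list. The vitellogenins and *rme-2* lie to the right of all 13 yolk regulators and of most intestine markers, oocyte markers overlap them, and sperm markers lie near 0.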

How the data were processed

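Only the young stage ADF replicate 1 library was analysed, so no groups were compared. The values are FPKM deposited by the authors, made with Ballgown after alignment to WBcel235 with HISAT2 according to their methods, while the submitters' processing notes name Bowtie 0.12.2 and StringTie. The annotation is not given in the sources used here. The methods name a stranded KAPA kit and the labels an Illumina TruSeq kit, so use of strand is unsettled. Entries were named through NCBI Gene numbers (RefSeq, WBcel235), which matched 44752 of 45495 genes, and 24 mitochondrial genome entries (0.103% of summed FPKM) were left out.

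Exon lengths came from Ensembl release 115. With these lengths, 77.4% of 6465 protein-coding genes under 40 fragments lay within 0.02 of a whole number at a library total of 18205113, against 4.35% with shuffled lengths. For each entry, the whole length that gave a whole fragment number and lay nearest to the annotation was kept, between 0.5 and 2 times the annotated length. It was found for 98.5% of the 17746 entries above 0 with an annotated length, with 18269077 fragments in all. This sum exceeds 18205113, by which the FPKM were scaled and which need not be a count of fragments on genes. Some recovered numbers may also be wrong. Tested on 4000 simulated entries for this library, 98.42% of fragment numbers were right, and 97.83% of those with at least 1000 fragments, as all 7 genes have. The simulated entries were drawn from recovered ones and given lengths at or near the annotated length. In the data 92.0% of recovered lengths were within 10% of the annotated length, so these simulated shares may be too high for all entries. Intervals are at 95%, Clopper-Pearson for single genes, conditional binomial for ratios and normal for sums, and cover counting error only. A percentile is the share of the other protein-coding genes at 1 FPKM or more that were lower.

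The 7 genes and the lists were chosen with earlier results of these data known. All members and all listed genes are named or counted, and the genes at the loci and *eef-1A.1* were named after their values were seen. Alternatives covered the TPM scale, the annotated length, the genes ranked, the share's denominator, summed copies, the FPKM threshold and the pseudocount of 1. Values were computed in Python 3.11.15 with pandas 2.3.3, numpy 2.4.6 and scipy 1.17.1, and plots were drawn with matplotlib 3.10.9.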

Additional observations from a re-analysis of the deposited data

How the results depend on the processing

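No paired analysis was possible because young stage ADF replicate 1 was the one library analysed here. Leaving out a replicate and any comparison with control were not run for the same reason.

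On the TPM scale, 1 factor for all genes, the levels were 173.4 for *vit-1*, 1459 for *vit-2*, 199.9 for *vit-3*, 300.2 for *vit-4*, 1084 for *vit-5*, 1618 for *vit-6* and 378.0 for *rme-2*. With the annotated exon length *rme-2* was at 325.6 FPKM, and the other levels stayed within counting error. The percentiles were 91.0 for *vit-1*, 99.1 for *vit-2*, 92.4 for *vit-3*, 95.5 for *vit-4*, 98.8 for *vit-5*, 99.2 for *vit-6* and 96.7 for *rme-2*. In the same order they were 93.9, 99.4, 94.8, 96.9, 99.2, 99.5 and 97.8 among protein-coding genes above 0, 91.4, 99.2, 92.7, 95.7, 98.9, 99.3 and 96.8 among all genes at 1 FPKM or more, and 93.5, 99.4, 94.5, 96.7, 99.1, 99.4 and 97.6 among protein-coding genes at 0.1 FPKM or more, each a different set of ranked genes.

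The share of the 6 vitellogenins was 0.483% of all FPKM, 0.487% of that of protein-coding genes and 2.02% of recovered fragments. With close copies summed, the highest level was the 1375 FPKM of *vit-1* and *vit-2* in place of the 1363 FPKM of *vit-6*. Ranks by fragments, and subfamily sums with annotated lengths, were alternatives chosen after seeing the data. These lengths gave 8.06 FPKM in place of 11.8 FPKM for *vit-1* and *vit-2* minus *vit-6*, an interval that then held 0, and left the other differences between subfamilies above counting error. Of the 33 genes on the pathway lists, 32 reached an FPKM of at least 1 and 22 reached 10. The shares over all protein-coding genes were 56.9% and 33.8%. All 33 reached 0.1, where the share over all genes was not computed. The log2 ratio of *vit-6* to *vit-1* was 3.22, and 3.21 with the pseudocount. Depth limits only the weak genes of the lists, such as *mab-3*.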

Other observations

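Markers of other tissues were mostly below the yolk genes. The lowest of the 6 germline markers, *htp-3*, had 57.0 FPKM, above 74.3% of the other protein-coding genes at 1 FPKM or more. The germ granule gene *pgl-1* had 219.5 FPKM and *nos-2* had 221.4 FPKM. None of the 6 was above *rme-2*, but *him-3* (190.5 FPKM), *pgl-1* and *nos-2* were above *vit-1* and *vit-3*. Sperm markers were near 0, with 2.22 FPKM for the phosphatase gene *gsp-3* as the highest of 6, and *spe-11* was listed at 0, where 3 fragments would be 0.169 FPKM. Early embryo markers ranged from 0.209 FPKM for *med-1*, on 2 fragments, to 4.01 FPKM for *pes-1*. Body wall muscle markers ranged from 8.54 FPKM for *myo-3* to 66.1 FPKM for *unc-15*, and pharynx markers from 0.232 to 5.85 FPKM. The adult cuticle collagen gene *col-19*, at 691.2 FPKM, was the one hypodermis marker above *vit-1*, and the cuticle collagen genes *rol-6* and *bli-1* had 6.05 and 0.811 FPKM. Among neuron markers *snb-1* alone was above *vit-1*, with 339.4 FPKM, and *unc-47* was lowest, with 0.314 FPKM.

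The deposited table lists *vit-6* at position 1, *vit-2* at 2 and *vit-5* at 4, close to their ranks of 2, 3 and 4 by recovered fragments. *vit-1* stands at position 84, although it ranked 172 by fragments, and *vit-3* stands at 95 and ranked 151. By contrast, *rme-2* stands at position 207 and ranked 120, and *vit-4* stands at 75 and ranked 81. The 13531 fragments of *vit-1* were 0.544 of the median of the 19 other protein-coding genes listed around it, and the 16996 of *rme-2* were 1.39 times the median of 20. What sets the order of the table was not tested.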
